A study of Mus musculus with 12 samples.

Results

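Genes of the Bcl2 family, which set the threshold for mitochondrial cell death, were followed across 12 arrays of mouse spleen RNA. The members were 10 named genes: the survival genes Bcl2, Bcl2l1 and Mcl1, and the death genes Bax, Bak1, Bid, Bbc3, Pmaip1, Bcl2l11 and Bmf. Each was represented by the probe set whose annotation gives a single gene symbol, and 9 of the 10 had such a probe set (3 survival and 6 death members), out of 19938 genes in all. Each of the 9 had 1 such probe set. Bax is not analysed here.

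The labels were septic TLR-deficient on 4 arrays, septic wildtype on 4 and untreated wildtype on 4, all for mice of strain C57BL/6. Septic mice had colon ascendens stent peritonitis (CASP), in which gut bacteria leak into the abdomen through a stent in the colon. Titles of the TLR-deficient arrays read Trifxmyd, after the adaptors Trif and MyD88 that carry Toll-like receptor (TLR) signals. The labels give neither the alleles nor the age or sex of the mice, nor the time from operation to sampling, and no untreated TLR-deficient mice were part of the design. The titles also carry running numbers, M5 to M8 for septic TLR-deficient replicates 1 to 4, M9 to M12 for septic wildtype and M13 to M16 for untreated wildtype.

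Cells die through their mitochondria when the pore-forming proteins Bax and Bak1 open the outer membrane and release cytochrome c. Bcl2, Bcl2l1 (Bcl-xL) and Mcl1 hold these pores shut, and the BH3-only proteins Bid, Bbc3 (Puma), Pmaip1 (Noxa), Bcl2l11 (Bim) and Bmf set them free, either by blocking the survival proteins or by acting on the pore formers. Loss of lymphocytes by apoptosis in the spleen is a known feature of sepsis. Much of the family is controlled at the protein level, which arrays of RNA do not measure.

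The start regions of a pair of members are shown first, since Bcl2l11 varied most between arrays and Mcl1 least once septic wildtype replicate 2 was set aside. They are the 250 bases before the annotated start in RefSeq, build GRCm38.p6, at chr2:128125788-128126037 on the plus strand for Bcl2l11 and at chr3:95658471-95658720 on the plus strand for Mcl1. Capitals mark GTAAACA, a core motif of Foxo transcription factors, which are known to switch on Bcl2l11 in lymphocytes.
Bcl2l11: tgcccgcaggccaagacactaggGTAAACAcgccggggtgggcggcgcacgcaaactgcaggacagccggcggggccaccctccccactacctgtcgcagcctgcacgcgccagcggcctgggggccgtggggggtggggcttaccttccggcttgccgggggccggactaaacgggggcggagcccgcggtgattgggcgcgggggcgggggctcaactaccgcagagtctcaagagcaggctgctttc
Mcl1: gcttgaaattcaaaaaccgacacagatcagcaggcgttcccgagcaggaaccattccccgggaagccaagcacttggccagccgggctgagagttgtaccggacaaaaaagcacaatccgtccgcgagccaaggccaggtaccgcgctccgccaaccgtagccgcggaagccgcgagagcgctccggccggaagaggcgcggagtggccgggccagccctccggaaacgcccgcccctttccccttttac
The first base of the Bcl2l11 match is at position -227 relative to the start, and 72.0% of the bases of this window are G or C, against 64.4% in the Mcl1 window. The motif, on either strand, occurred in 3.17% of 32851 mouse windows of the same length. In the 16 windows of the 9 members searched (Bax among them, Pmaip1 not), Bbc3 also held it, as its reverse complement TGTTTAC. The other motifs searched on both strands were the NF-kappaB motif (0.356% of all windows), TGANTCA for AP-1 (6.75%), TGACGTCA, the cyclic AMP response element (1.55%), the glucocorticoid receptor palindrome (0.00913%) and CACGTG, an E-box (6.02%). Of these, the E-box occurred in windows of Bbc3 and Bax, and the first 4 had no match in any member's window. These motifs do not overlap in the matches found, and a match is a description of the letters, not a binding site.

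Before the values, 2 features of the arrays need stating. Septic wildtype replicate 2 (M10) stood apart: its log2 values correlated across genes with those of the other 11 arrays at Pearson's r of 0.765 to 0.809, whereas those 11 correlated with each other at 0.956 to 0.991, and its values were compressed, with an SD over genes of 1.52 against 2.11 to 2.24. In addition, the label matched that of the best-correlated other array for 5 of 12 arrays. All 12 correlated best with an array of their own block of title numbers, M5 to M7 with M16, M8 to M11, or M12 to M15. The blocks are therefore given beside the labels as a description; they were drawn up with these data known, are no groups of the study, and get no test. Myd88 averaged 9.28 ± 0.45 log2 on arrays labelled septic TLR-deficient, 8.29 ± 1.23 on septic wildtype and 9.27 ± 0.37 on untreated wildtype arrays, and Ticam1, which encodes Trif, averaged 5.88 ± 0.06, 6.01 ± 0.26 and 6.25 ± 0.35 log2 in the same order (SD, n = 4 each). Neither gene set the arrays labelled TLR-deficient apart, and whether the probes lie in the altered part of either gene is not given in the sources used here. Groups are accordingly named as labelled throughout.

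**Figure D1:**
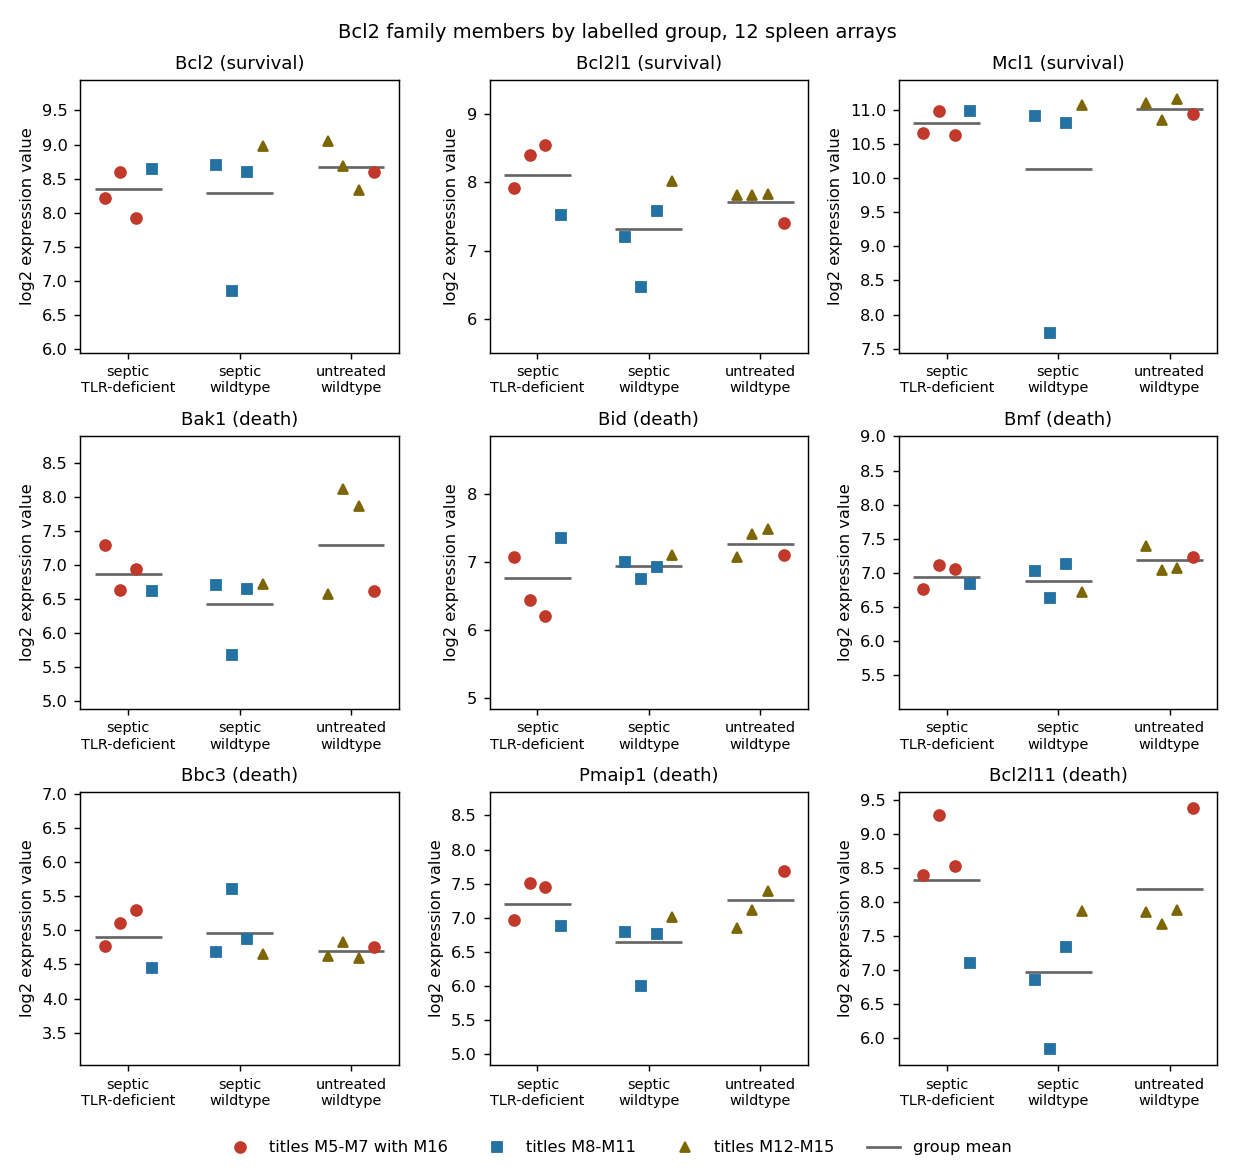
Log2 expression value of each of 9 Bcl2 family members (vertical axes, each spanning 4 log2 units) on the 12 arrays by labelled group, with 1 point per array, marker shape and colour for the block of title numbers, and a grey bar for the group mean. Bcl2l11 follows the marker shapes more closely than the labels, and M10 is the lowest point for 7 of the 9 members.

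Among the survival members, Mcl1, a short-lived protein that lymphocytes and neutrophils depend on, was the steadiest. Its log2 values were 10.66, 10.98, 10.64 and 10.98 on septic TLR-deficient arrays, 10.91, 7.73, 10.81 and 11.07 on septic wildtype arrays, and 11.11, 10.85, 11.16 and 10.93 on untreated wildtype arrays. The value of 7.73 belongs to M10, and the other 11 arrays lie within 0.52 log2. Over those 11 arrays its SD of 0.17 was larger than that of 26.4% of all genes.

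Bcl2, the founding survival gene, had log2 values of 8.21, 8.59, 7.92 and 8.64 on septic TLR-deficient arrays, 8.70, 6.86, 8.60 and 8.97 on septic wildtype arrays and 9.04, 8.68, 8.33 and 8.60 on untreated wildtype arrays. M10 was again lowest, and the groups overlapped. Without M10 the septic wildtype mean was 8.76 ± 0.19 (SD, n = 3), against 8.66 ± 0.29 on untreated arrays (SD, n = 4).

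Bcl2l1, whose product Bcl-xL keeps maturing red cells alive, ranged more widely. Its log2 values were 7.92, 8.41, 8.55 and 7.53 on septic TLR-deficient arrays, 7.20, 6.46, 7.59 and 8.03 on septic wildtype arrays and 7.81, 7.82, 7.84 and 7.40 on untreated wildtype arrays. The highest 2 values, on M6 and M7, were septic TLR-deficient, and M8 of the same label lay below all but 1 of the untreated arrays. Apart from M10, the lowest values were on M9 and M16. The mean log2 value over 7 erythroid marker genes was also lowest on those arrays, at 7.01 on M9 and 6.86 on M16. It lay between 7.97 and 8.88 on the other 10. Low Bcl2l1 also occurred with high erythroid means, which were 8.77 on M10, whose values are compressed over all genes, and 8.72 on M8. Apart from M10, M8 had the next lowest Bcl2l1 value after M9 and M16. The part of the red cell lineage in the Bcl2l1 values was not tested.

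Bak1, the pore former measured here, had log2 values of 7.29, 6.64, 6.94 and 6.62 on septic TLR-deficient arrays, 6.70, 5.67, 6.64 and 6.71 on septic wildtype arrays and 6.57, 8.11, 7.86 and 6.62 on untreated wildtype arrays. The untreated replicates 2 and 3 (M14 and M15) were the highest of the 12, and the other untreated pair lay among the septic arrays. Its SD over 11 arrays, 0.54, was larger than that of 93.4% of genes.

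Among the BH3-only members, Bcl2l11, whose product Bim binds all survival proteins and removes lymphocytes at the end of immune responses, varied most. Its log2 values were 8.40, 9.27, 8.52 and 7.10 on septic TLR-deficient arrays, 6.85, 5.84, 7.34 and 7.87 on septic wildtype arrays, and 7.85, 7.67, 7.88 and 9.38 on untreated wildtype arrays. The fourth replicate left the other 3 of its label in each group, being the lowest septic TLR-deficient, the highest septic wildtype and the highest untreated array. The SD of 0.82 over 11 arrays was larger than that of 98.1% of genes, where the median gene had 0.23.

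Pmaip1, a p53 and interferon target whose product neutralises Mcl1, had log2 values of 6.97, 7.52, 7.45 and 6.87 on septic TLR-deficient arrays, 6.79, 6.00, 6.76 and 7.01 on septic wildtype arrays and 6.84, 7.12, 7.39 and 7.68 on untreated wildtype arrays. The septic wildtype arrays were at the low end, but overlapped with both other groups. Bid, which links death receptors to mitochondria after cleavage by caspase 8, had log2 values of 7.08, 6.45, 6.21 and 7.34 on septic TLR-deficient arrays, 6.999, 6.75, 6.93 and 7.10 on septic wildtype arrays and 7.07, 7.40, 7.48 and 7.10 on untreated wildtype arrays. The lowest 2 values of Bid, on M6 and M7, were septic TLR-deficient.

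Bmf, a sensor of cell detachment and cytoskeletal stress, stayed between 6.62 and 7.39 log2 on all 12 arrays, with means of 6.94 ± 0.17 on septic TLR-deficient, 6.88 ± 0.24 on septic wildtype and 7.18 ± 0.16 on untreated wildtype arrays (SD, n = 4 each). Bbc3, a p53 target that binds all survival proteins, lay below the median gene of its own array on 12 of 12 arrays. Its means were 4.90 ± 0.38, 4.96 ± 0.45 and 4.70 ± 0.11 log2 for the same groups in the same order (SD, n = 4 each), with its highest value, 5.61, on M10. A gene this dim leaves little room to see a fall, and M10 is the array whose values are compressed over all genes. In whole spleen, fewer cells of a type and less RNA per cell cannot be told apart, for these and all values below.

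The first comparison, septic TLR-deficient against septic wildtype, asks how the loss of TLR signalling alters the septic spleen. No member passed the threshold of an adjusted p of 0.05 (limma, adjusted by Benjamini-Hochberg over all genes), and neither did any of the 19938 genes (0%). Bcl2l11 averaged 8.32 ± 0.90 log2 on septic TLR-deficient arrays and 6.97 ± 0.86 on septic wildtype arrays (SD, n = 4 each), a difference of 1.35 (SE 0.52, limma adjusted p = 0.590). Bcl2l1 averaged 8.10 ± 0.47 and 7.32 ± 0.66, a difference of 0.78 (SE 0.32, limma adjusted p = 0.590). These 2 members were the ones with an unadjusted p under 0.05 in the direction of higher values, against 4.42% of all genes, and 0 members had one in the direction of lower values, against 2.22%. Without M10 neither of them did, and the count toward higher values was 0 members against 3.38% of genes.

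Pmaip1 differed by 0.56 (SE 0.26), Bak1 by 0.44 (SE 0.37) and Mcl1 by 0.68 (SE 0.57) in the same comparison. The Mcl1 difference rested on M10 and was -0.12 without it. Bcl2 (0.06), Bmf (0.07), Bbc3 (-0.05) and Bid (-0.18) lay within 1 SE of 0 with all arrays. Without M10 Bcl2 came to -0.42 (SE 0.21), Bak1 to 0.19 (SE 0.35), Pmaip1 to 0.35 (SE 0.21) and Bbc3 to 0.17 (SE 0.18). Differences were above 0 for 7 of 9 members, against 43.9% of all genes, and for 5 of 9 without M10, against 48.0%. In 0 of 9 members were the 4 arrays of 1 group all above the 4 of the other, which held for 3.80% of genes. Leaving out M10 brought the Bcl2l11 difference to 0.97 (SE 0.51) and that of Bcl2l1 to 0.50 (SE 0.26).

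The fourth array of each label lies in another block than the first 3. Without these 3 arrays (M8, M12 and M16) Bcl2l11 was higher by 2.06 on septic TLR-deficient than on septic wildtype arrays (SE 0.38, limma adjusted p = 0.046), as 1 of 9 members past the threshold, against 0.707% of genes. Bcl2l1 then differed by 1.21 (SE 0.30, limma adjusted p = 0.135). With M10 left out as well, both passed, Bcl2l11 with 1.64 (SE 0.26, limma adjusted p = 0.009) and Bcl2l1 with 0.90 (SE 0.20, limma adjusted p = 0.035), against 5.03% of genes. The arrays left out were picked because they do not group with their label over all genes, so these p-values are no independent test of the labels. Without the fourth arrays each label holds arrays of a single block, so label and block cannot be told apart in these fits.

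**Figure D2:**
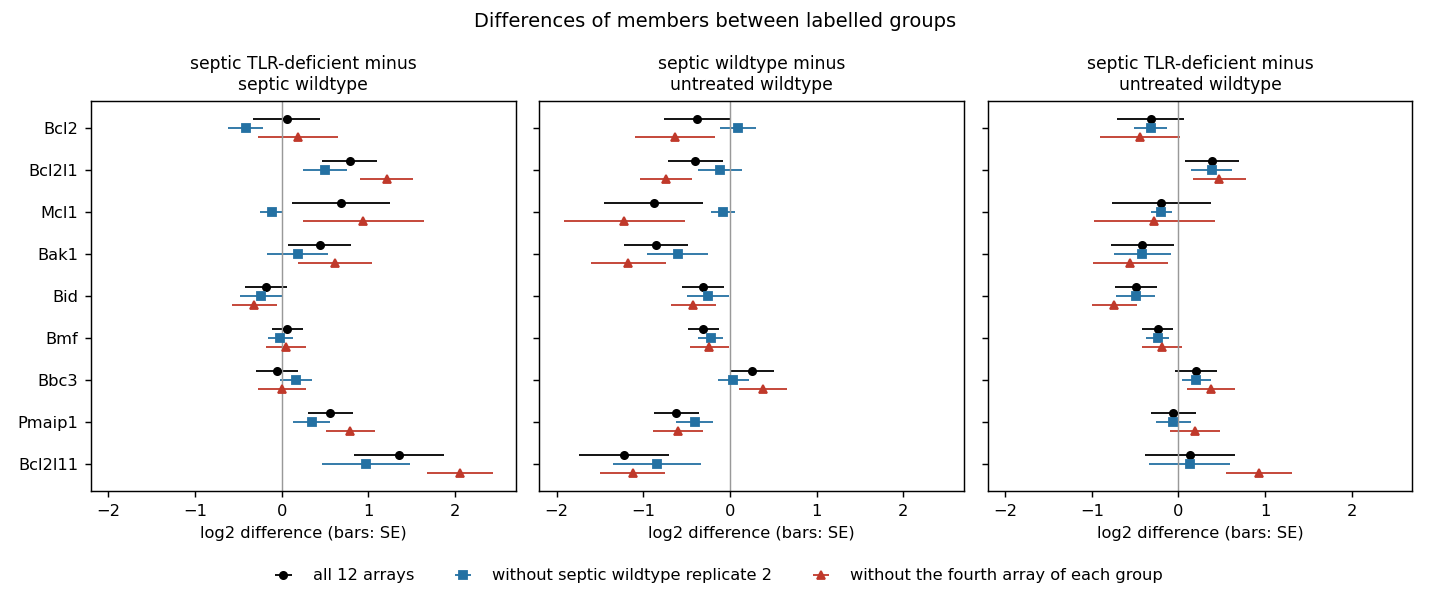
Log2 difference between labelled groups (horizontal axes) of each member in the 3 comparisons, with bars of 1 SE from limma, for all 12 arrays, without septic wildtype replicate 2, and without the fourth array of each group. Bcl2l11 has the largest difference of septic TLR-deficient over septic wildtype arrays in each of the 3 sets, 1.35, 0.97 and 2.06, and the Mcl1 difference lies at -0.12 once septic wildtype replicate 2 is left out.

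The second comparison, septic against untreated wildtype as labelled, asks what peritonitis does to the spleen. All 8 acute inflammation genes described below had lower means on arrays labelled septic wildtype than on untreated ones (median log2 difference -1.41). So did all 7 interferon response genes (-2.28). Without the fourth arrays 7 of the 8 and all 7 were lower. With all arrays none of them passed the threshold, and the reason for this direction was not tested. Again 0 of 9 members passed, against 0% of genes (limma, adjusted p of 0.439 or more). Bcl2l11 averaged 6.97 ± 0.86 log2 on septic wildtype arrays, against 8.20 ± 0.79 on untreated wildtype arrays, a difference of -1.22 (SE 0.52). Bak1 differed by -0.86 (SE 0.37) and Pmaip1 by -0.62 (SE 0.26). These 3 death members had an unadjusted p under 0.05 toward lower values, against 5.92% of all genes, and 0 members had one toward higher values, against 2.89%. Without M10 the count toward lower values was 0 members, against 2.96% of genes.

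Without M10 these differences were -0.84 for Bcl2l11, -0.60 for Bak1 and -0.41 for Pmaip1. The survival members Mcl1, at -0.88, Bcl2l1, at -0.40, and Bcl2, at -0.38, came to -0.08, -0.11 and 0.09 without M10. Bcl2l1 was at -0.74 (SE 0.30) without the fourth arrays, and at -0.43 (SE 0.20) with M10 left out too. In that last setting Mcl1 was at -0.18 (SE 0.16) and Bcl2 at -0.04 (SE 0.24). Bid (-0.32) and Bmf (-0.31) were also below 0, and Bbc3 (0.26, or 0.039 without M10) was the single member above it, whereas 55.1% of all genes were above 0. Without M10, Bbc3 and Bcl2 were above 0, against 55.3% of genes. No member had groups that did not overlap, against 6.42% of genes. Without the fourth arrays 0 of 9 members passed as well, against 0.0451% of genes, nor did any with M10 left out too, against 0.0953%.

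The third comparison, septic TLR-deficient against untreated wildtype, changes both genotype and treatment, and shares its arrays with the other 2. In it 0 of 9 members passed, against 0% of genes, and 0 had an unadjusted p under 0.05 in either direction, against 1.17% of genes toward higher and 0.707% toward lower values. Bid had the largest difference, with 6.77 ± 0.53 log2 on septic TLR-deficient arrays and 7.26 ± 0.21 on untreated arrays (SD, n = 4 each), or -0.49 (SE 0.24). Fitted without M10, Bid was the 1 member with an unadjusted p under 0.05 toward lower values, against 2.90% of genes. Bcl2l1 differed by 0.39 and Bak1 by -0.42. Bcl2l11 differed by 0.13 (SE 0.52), and by 0.93 (SE 0.38, limma adjusted p = 0.764) without the fourth arrays, a setting that leaves out both M8, the lowest septic TLR-deficient value, and M16, the highest untreated value. Without the fourth arrays 0 members passed, against 0.166% of genes, and 0 with M10 left out too, against 3.39%. Differences were above 0 for 3 of 9 members, against 51.9% of genes, and groups did not overlap for 0 members, against 3.40%.

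By blocks of title numbers, Bcl2l11 fell into 3 ranges that do not touch. It lay between 8.40 and 9.38 log2 on M5 to M7 with M16, between 5.84 and 7.34 on M8 to M11, and between 7.67 and 7.88 on M12 to M15. The means were 8.89, 6.78 (7.09 without M10) and 7.82. Bcl2l11 was the sole member with this order of separate blocks, which 65 genes (0.326%) share. M5 to M7 with M16 lay above all other arrays for 1.72% of genes and M8 to M11 below all others for 2.12%, and Bcl2l11 was again the sole member in each.

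The block means of Pmaip1 ran in the same order, at 7.40, 6.61 and 7.09 log2, with overlapping ranges. Bcl2l1 had block means of 8.07, 7.19 and 7.87, and Bak1 of 6.87, 6.41 and 7.31. Bid had its lowest block mean on M5 to M7 with M16, at 6.71, against 7.01 on M8 to M11 and 7.26 on M12 to M15. Bcl2 (8.33, 8.20 and 8.76) and Mcl1 (10.80, 10.11 and 11.05) were low on M8 to M11 through M10 alone, with 8.65 and 10.90 there without it. Bmf (7.04, 6.90 and 7.05) and Bbc3 (4.98, 4.90 and 4.67) had overlapping blocks.

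**Figure D3:**
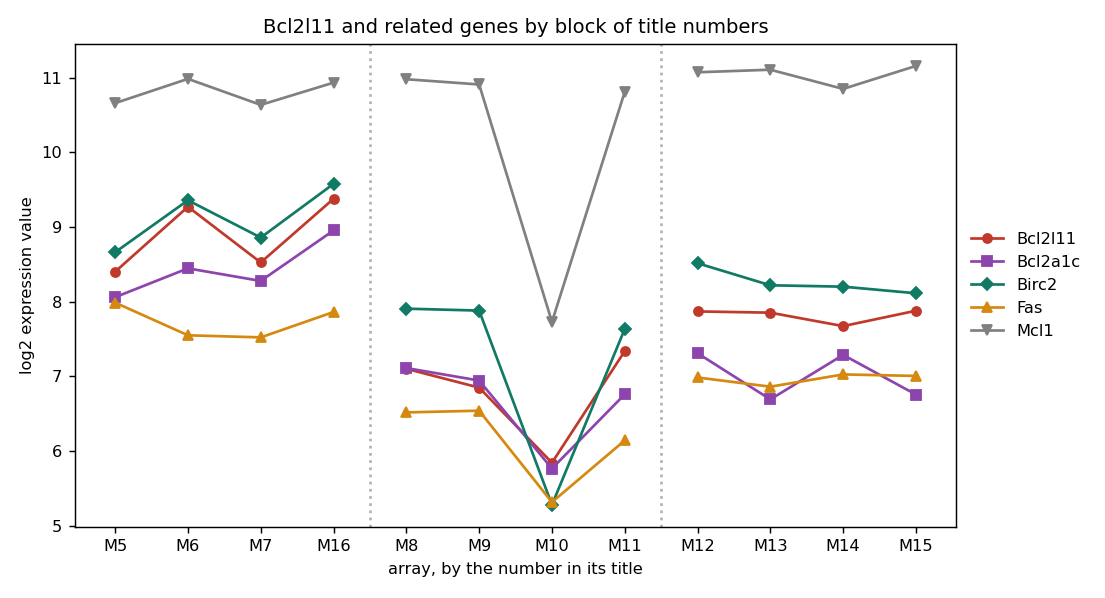
Log2 expression value (vertical axis) of Bcl2l11, the related genes Bcl2a1c, Birc2 and Fas, and Mcl1 on each of 12 arrays, ordered by block of title numbers with dotted lines between blocks. Only the course of each gene over the arrays is to be read, not the height of 1 gene against another; Bcl2l11 lies at 8.40 or more on M5 to M7 with M16, and Mcl1 moves little apart from M10.

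Survival and death members were set side by side as the mean over genes of each array's log2 distance from the gene's median over 12 arrays. Survival minus death came to -0.33, -0.06, -0.26 and 0.14 on septic TLR-deficient arrays, 0.05, -1.45, 0.01 and 0.30 on septic wildtype arrays and 0.22, -0.29, -0.32 and -0.53 on untreated wildtype arrays. The groups overlapped, and M10, whose values are compressed over all genes, was the lowest. By block, the death mean was 0.14 to 0.39 on M5 to M7 with M16, -0.65 to -0.12 on M8 to M11 and -0.06 to 0.31 on M12 to M15. The survival mean was -0.18 to 0.22, -2.10 to -0.06 and -0.00 to 0.25 in the same blocks. The mean over death members thus did not overlap between M5 to M7 with M16 and M8 to M11, while the survival ranges met. Of the 6 death members, Bcl2l11 and Pmaip1 were themselves separate between these blocks, and Bak1, Bid, Bbc3 and Bmf overlapped. Bid ran the other way, with means of 6.71 and 7.01. The share of all genes separate between this pair of blocks was not counted. The split among members is therefore a description of the values and no result about the family.

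**Figure D4:**
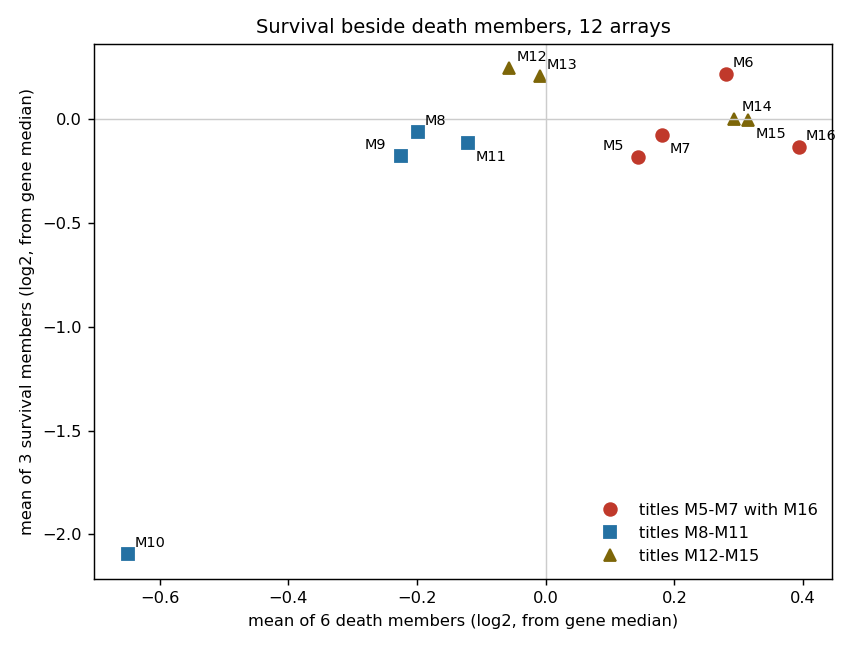
Mean of the 3 survival members against the mean of the 6 death members on each of 12 arrays, both as log2 distance from the gene's median over the arrays, with markers for the blocks of title numbers. M8 to M11 lie on the low side of the death axis, from -0.65 to -0.12. M5 to M7 with M16 lie on the high side, from 0.14 to 0.39. M10 alone, whose values are compressed over all genes, is far down the survival axis at -2.10.

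The rest of the pathway was described with 3 lists: 13 measured of 16 other Bcl2 family genes, 15 of 17 genes of the apoptosome, the caspases and their inhibitors, and 11 of 13 of p53 and its targets. With all 12 arrays none of these 39 genes passed in any comparison (limma, 0% of all genes). Without the fourth arrays, Bcl2a1c (1.77, SE 0.33) and Fas (1.69, SE 0.31) were higher on septic TLR-deficient than on septic wildtype arrays (limma adjusted p = 0.046 for each), 2 of 39 against 0.707% of genes. With M10 left out too, Bcl2a1c (1.41), Birc2 (1.20) and Fas (1.35) were higher and Casp9, the caspase started by the apoptosome, was lower (-0.64), or 4 of 39 against 5.03% of genes. In that setting Bcl2a1c was also higher than on untreated wildtype arrays (1.35, SE 0.18, limma adjusted p = 0.006), as 1 of 39 against 3.39%. As for the members, these arrays were picked with the data known, and without the fourth arrays label and block cannot be told apart. For septic TLR-deficient against septic wildtype arrays the median differences were -0.05, 0.41 and 0.20, against -0.06 over all genes, and without M10 they were 0.03, 0.02 and 0.09, against -0.01. For septic against untreated wildtype arrays they were -0.07, -0.46 and -0.21, against 0.07 over all genes, and without M10 they were -0.02, -0.06 and -0.18, against 0.02. For septic TLR-deficient against untreated wildtype arrays they were 0.04, -0.12 and 0.02, against 0.01.

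The gene of each list with the largest difference of septic TLR-deficient over septic wildtype arrays was Bcl2a1c (1.28, SE 0.49), a survival relative of Bcl2, Birc2 (1.37, SE 0.59), an inhibitor of apoptosis protein, and Fas (1.15, SE 0.38), a death receptor. Bcl2a1c belongs to a cluster of near-identical mouse copies, so its signal is uncertain. Without M10 the differences were 0.97 for Bcl2a1c, 0.69 for Birc2 and 0.84 for Fas. These 3 genes resembled Bcl2l11 by block. Bcl2a1c lay at 8.06 to 8.95 log2 on M5 to M7 with M16, 5.76 to 7.11 on M8 to M11 and 6.69 to 7.31 on M12 to M15. Birc2 lay at 8.66 to 9.58, 5.28 to 7.91 and 8.11 to 8.51 in the same blocks.

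Fas lay at 7.52 to 7.99, 5.31 to 6.54 and 6.86 to 7.02. In septic against untreated wildtype arrays, Apaf1, the scaffold of the apoptosome, had the largest difference of its list, -1.44 (SE 0.60), or -0.70 (SE 0.38) without M10, with Bcl2a1c at -0.73 and Fas at -0.94. In septic TLR-deficient against untreated wildtype arrays the largest were Bnip3l (0.59), Casp6 (-0.34) and Trp53inp1 (0.22). None of these passed the threshold with all arrays.

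Several programs and cell type lists differed between the blocks, and others overlapped across them. The mean log2 value of 8 acute inflammation genes was 8.13 to 9.42 on M5 to M7 with M16, 5.56 to 5.95 on M8 to M11 and 6.03 to 6.64 on M12 to M15. That of 8 glucocorticoid response genes was 8.62 to 8.85, 6.30 to 7.39 and 7.64 to 8.20. Both lists had separate blocks in the order of Bcl2l11. That of 7 interferon response genes was 8.57 to 10.13, 6.14 to 7.74 and 8.93 to 10.30. By label, the acute inflammation mean was 5.64 to 9.42 on septic TLR-deficient, 5.56 to 6.19 on septic wildtype and 6.03 to 9.38 on untreated arrays. The interferon response mean was 7.74 to 9.99, 6.14 to 10.22 and 8.93 to 10.30 in the same order.

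Of the cell type lists, 7 measured B cell markers averaged 8.06 to 8.31 log2 on M5 to M7 with M16, 8.23 to 10.28 on M8 to M11 (9.97 or more without M10) and 9.55 to 9.90 on M12 to M15. The 7 T cell markers averaged 7.24 to 7.54, 7.19 to 8.64 and 7.74 to 8.59. The 8 neutrophil markers averaged 5.99 to 7.01, 6.18 to 6.84 and 7.95 to 8.98. The 8 red pulp macrophage markers averaged 8.56 to 9.02, 8.21 to 9.99 (9.73 or more without M10) and 9.19 to 9.52. The 7 erythroid markers (6.86 to 8.88, 7.01 to 8.77 and 7.97 to 8.65) and 8 plasma cell markers (7.07 to 7.55, 6.76 to 7.47 and 6.98 to 7.68) overlapped across all blocks. Bcl2l11 was thus highest where the B cell, T cell and red pulp macrophage lists were low. M10, whose values are compressed over all genes, was low in these lists too and had the lowest Bcl2l11 value. By label the B cell ranges overlapped, at 8.06 to 10.17 on septic TLR-deficient, 8.23 to 10.28 on septic wildtype and 8.24 to 9.90 on untreated arrays. The part of cell makeup and of these programs in the members' values was not tested.

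**Figure D5:**
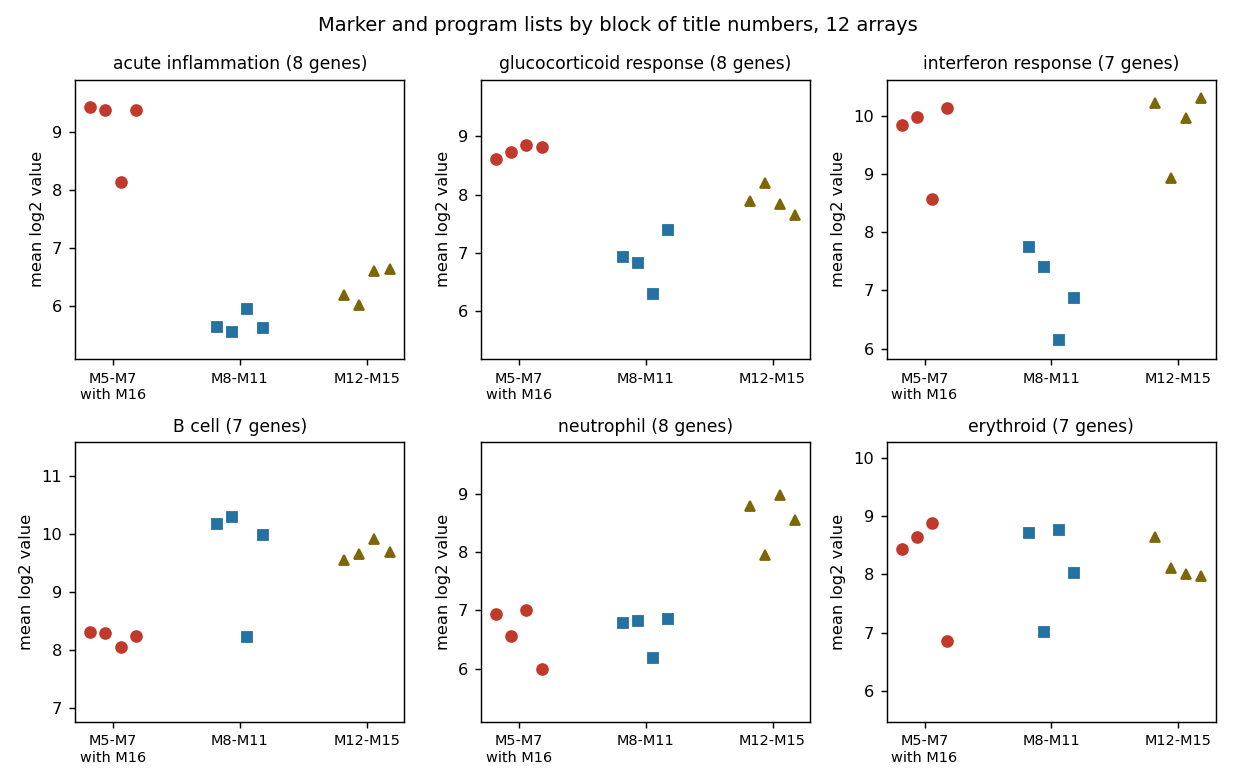
Mean log2 value over the genes of 6 marker and program lists (vertical axes, each spanning 4.8 log2 units), 1 point per array, by block of title numbers. The acute inflammation list lies at 8.13 or more on M5 to M7 with M16 and at 6.64 or less on all other arrays, and the B cell list is at 8.31 or less on M5 to M7 with M16 and on M10.

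The genes whose log2 values ran most like a member's were ranked by Pearson's r over the 11 arrays other than M10, with r over all 12 beside it where the genes are given singly. The arrays fall into blocks, so these r describe shared blocks as much as shared courses and get no p. For Bcl2l11 they were Tnip2 (0.99, and 0.97 over 12), Hilpda (0.98, and 0.87) and Plaur (0.98, and 0.98). Tnip2 encodes an inhibitor of NF-kappaB activation, Hilpda a lipid droplet protein and Plaur the urokinase receptor. For Pmaip1 they were Traf6, an adaptor of TLR signalling (0.96, and 0.96 over 12), Kcmf1 (0.95, and 0.89) and Tifa (0.95, and 0.98). For Bak1 they were Ppif, the cyclophilin of the mitochondrial matrix (0.98, and 0.99 over 12), Ube2v1 (0.97, and 0.96) and Rab35 (0.95, and 0.86). For Bcl2l1 they were Tomm5, a subunit of the mitochondrial import pore (0.97, and 0.96 over 12), Fhdc1 (0.95, and 0.73 over 12) and Fzr1 (0.93, and 0.74). For Bid they were Chordc1 (0.95, and 0.65 over 12), Dpep1 (0.95, and 0.21) and Mcu, the mitochondrial calcium channel (0.95, and 0.92). For the remaining members the closest genes were Luc7l3, Baz2b and Prdm9 for Bcl2 (0.90 to 0.93), Ttc17, Asgr2 and Smg6 for Mcl1 (0.88 to 0.92), Olfr18, Ccdc154 and Mir181c for Bbc3 (0.95 to 0.96) and Klc4, Gigyf1 and Fgfr1 for Bmf (0.87 to 0.88). Over all 12 arrays Prdm9 came to 0.24 with Bcl2 and Asgr2 to -0.81 with Mcl1, and the other 10 of these genes lay between 0.85 and 0.995. Among members, Pmaip1 and Bcl2l11 ran together at 0.84 over 11 arrays and 0.91 over 12.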

How the data were processed

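Total RNA of spleen for the 12 arrays was labelled as biotinylated cDNA with Affymetrix whole-transcript kits, per the labels' protocols. The authors deposited 1 log2 value for each probe set and array, made with RMA in Affymetrix Expression Console, per the submitters' processing notes; versions are not given in the sources used here. RMA summarises probes and is meant to make the arrays' distributions alike, which can remove shifts of all genes together. The deposited values were not fully alike. Array medians over probe sets ran from 5.22 to 5.54, and the SD over genes was 1.52 on septic wildtype replicate 2 against 2.11 to 2.24 on the others. Of 35557 probe sets, 21789 carry 1 symbol, which gave 19938 genes by the probe set with the highest mean; no dim gene was left out, and probe set levels are not comparable between genes. The number of arrays limits the precision.

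Comparisons were fitted with limma 3.58.1 in R 4.3.3, with 1 mean per labelled group over 12 arrays, two-sided, with p-values adjusted by Benjamini-Hochberg across the genes. The labels call the replicates biological without naming animals, so p-values measure the spread between these arrays. Promoter windows came from RefSeq (GRCm38.p6). Named genes were all members, the 3 genes most like each by r and the largest difference per related list. Members, lists and the blocks of title numbers were chosen with earlier results of these data known. Alternatives were a second quantile normalization, centring on medians, leaving out dim genes, the mean of probe sets, fewer arrays, array weights, replicate number as a block, and a threshold of 0.01; leaving out the fourth arrays together with septic wildtype replicate 2 was added after seeing the data. The fits were tested on simulated data. Figures were drawn with matplotlib 3.10.9.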

Additional observations from a re-analysis of the deposited data

Results flagged for a closer look

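In 27 groups of 4 arrays, 1 for each member and label, 4 had an array far from the other 3. The members share the same arrays, so these groups are not independent and the count is set against no chance rate. All 4 values lie on septic wildtype replicate 2 or untreated wildtype replicate 4. Mcl1 stood at 7.73 log2 and Bak1 at 5.67 on septic wildtype replicate 2, the array that stands apart over all genes, with a gap to the next array of 0.922 and 0.932 of the group's range. Bcl2l11 stood at 9.38 on untreated wildtype replicate 4, above the other untreated arrays by 0.879 of the range. Bcl2l1 stood at 7.40 on the same array, below the others by 0.947 of the range.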

How the results depend on the processing

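The count of members past the threshold for septic TLR-deficient against septic wildtype arrays was 0 with all arrays, 1 (Bcl2l11) without the fourth arrays and 2 (Bcl2l11 and Bcl2l1) with septic wildtype replicate 2 left out too, a choice made after seeing the data. Without the fourth arrays label and block cannot be told apart. The count was 0 in the other comparisons under every alternative run. The labels do not say that replicate numbers pair the arrays. Deviations of same-numbered arrays from their group means correlated at -0.54 to 0.14, above 0.1 in 3 of 12 pairs. Septic wildtype replicate 2 and the fourth arrays, which lie in other blocks, enter these deviations. The correlations therefore cannot decide whether the arrays are paired. With replicate number as a block, 0 members passed in each comparison. Each replicate number occurs once in each group, so this block can change the SE but not a difference.

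Of the 27 member differences, 17 kept their sign under all 21 settings. Some settings could not move a difference: replicate number as a block, leaving out dim genes and fits on the compared groups alone. The same holds for the mean of probe sets, as no member has several, and for leaving out an array of a group not compared. The cause of the turns was not tested. For septic TLR-deficient minus septic wildtype, Bcl2 was -0.25 after a second quantile normalization, -0.36 with array weights and -0.41 without the fourth arrays and replicate 2. In the same settings Bmf was -0.19, -0.065 and -0.10, and Bbc3 was 0.032, 0.16 and 0.28, with 0.0003 without the fourth arrays alone. Mcl1 was -0.074 with weights and -0.10 without the fourth arrays and replicate 2. For septic minus untreated wildtype, quantile normalization gave 0.013 for Bcl2, 0.042 for Bid and 0.040 for Bmf, and weights gave 0.16 for Bcl2. For septic TLR-deficient minus untreated wildtype, Pmaip1 was 0.038 after quantile normalization and 0.19 without the fourth arrays, with or without replicate 2.

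Leaving out 1 array at a time gave, for septic TLR-deficient minus septic wildtype, -0.42 to 0.29 for Bcl2, -0.12 to 0.999 for Mcl1, -0.37 to 0.0089 for Bid, -0.19 to 0.17 for Bbc3 and -0.017 to 0.15 for Bmf. It gave -0.61 to 0.094 for Bcl2 in septic minus untreated wildtype, and -0.20 to 0.083 for Pmaip1 and -0.19 to 0.54 for Bcl2l11 in septic TLR-deficient minus untreated wildtype.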

Other observations

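Bak1 ran apart on 2 untreated arrays. On M14 and M15 it stood at 8.11 and 7.86 log2, where the other 10 arrays lay between 5.67 and 7.29. Ppif, the mitochondrial cyclophilin, stood at 8.86 and 8.75 on the same arrays, and Ube2v1, a partner of ubiquitin-conjugating enzymes, at 9.56 and 9.29. M12 and M13, the other arrays of that block, had 6.71 and 6.57 for Bak1 and 7.82 and 7.60 for Ppif. These arrays were picked after their values were seen.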
